A study of Mus musculus with 16 samples.

Results

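The genes described here are the matrix metalloproteinases (MMPs), the ADAMTS proteases and their tissue inhibitors, the TIMPs, in the mouse ovary. They were chosen by gene symbol, with earlier results of these data known. They comprise 40 of the 55426 genes in the deposited table: 18 MMPs, 18 ADAMTS proteases and 4 TIMPs. Of these, 37 had enough counts to be tested, namely 15 MMPs, all 18 ADAMTS genes and all 4 TIMPs. The filter on low counts left out Mmp3, Mmp7 and Mmp10.

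MMPs and ADAMTS enzymes are zinc proteases that cut collagens, proteoglycans and other matrix proteins outside the cell or at its surface. TIMPs bind the active site and block it, and TIMP3 is also the main inhibitor of several ADAMTS enzymes. In the ovary these genes are known for the opening of the follicle wall at ovulation, for the building and regression of the corpus luteum, and for the turnover of stroma. ADAMTS1 cleaves versican in the cumulus matrix around the egg, and TIMP1 is a secreted product of follicular and luteal cells.

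RNA was measured in whole ovaries from 16 mice of the inbred strain C57BL/6NHsd, in 4 groups of 4, and each library came from 1 ovary of a different mouse. On T mice had 6 weekly injections under the skin of 0.9 mg testosterone enanthate in sesame oil, begun at 9 to 10 weeks of age, and were 16 weeks old at collection. Post T mice had the same injections, were followed until estrous cycling came back, and were collected 4 cycles later, when 24 to 28 weeks old. Control for On T (16 weeks) and Control for Post T (24 to 28 weeks) were matched in age and received sesame oil alone. All ovaries were collected in diestrus. Each On T value is set against Control for On T and each Post T value against Control for Post T, and these comparisons share no library.

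Library totals ranged from 26598055 to 52659637 counts, so that 3 counts, taken as the floor, equalled 0.0571 to 0.117 CPM, counts scaled to library size. Markers of granulosa cells (summed level 1699 to 5611 TPM, a level scaled for transcript length and library size) and of oocytes (96.5 to 239.9 TPM) were present in all libraries, and 3 oviduct markers summed to 0.44 to 4.81 TPM. On T library 2 and Control for Post T library 1 had the lowest mean correlation with their own group (0.985 for both). With both left out, a setting chosen after the data were seen, 3 members of the family were called higher and 8 lower on testosterone, against 3 and 4 with all libraries. Post testosterone the same setting gave 5 higher and 5 lower, against 3 and 5. Over all genes it gave 872 higher and 1042 lower on testosterone, against 799 and 947. Post testosterone it gave 1559 and 866 over all genes, against 1410 and 905.

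On testosterone, 3 of the 37 genes rose and 4 fell by edgeR's quasi-likelihood test at an adjusted p under 0.05, while 4.24% of all genes tested were called higher and 5.03% lower. Mmp12, Adamts2 and Adamts10 rose. Timp1, Mmp14, Mmp15 and Adamts4 fell. The median log2 fold change was -0.20 over the 37 genes and -0.01 over all genes. Post testosterone, 3 rose (Mmp12, Mmp19, Mmp24) and 5 fell (Timp1, Timp4, Mmp11, Mmp15, Mmp16), against 7.49% and 4.81% of all genes, and the medians were -0.20 and -0.01. No statement on the family as a whole is drawn from such small counts, and the account below is of single genes. The same shares over all genes are the background for the counts of each class and list given below, and no test was run on those counts. The 2 treatment effects differed for Mmp19 and Timp1, both higher in Post T relative to On T, where 2.93% of all genes were called higher and 0.324% lower.

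**Figure D1:**
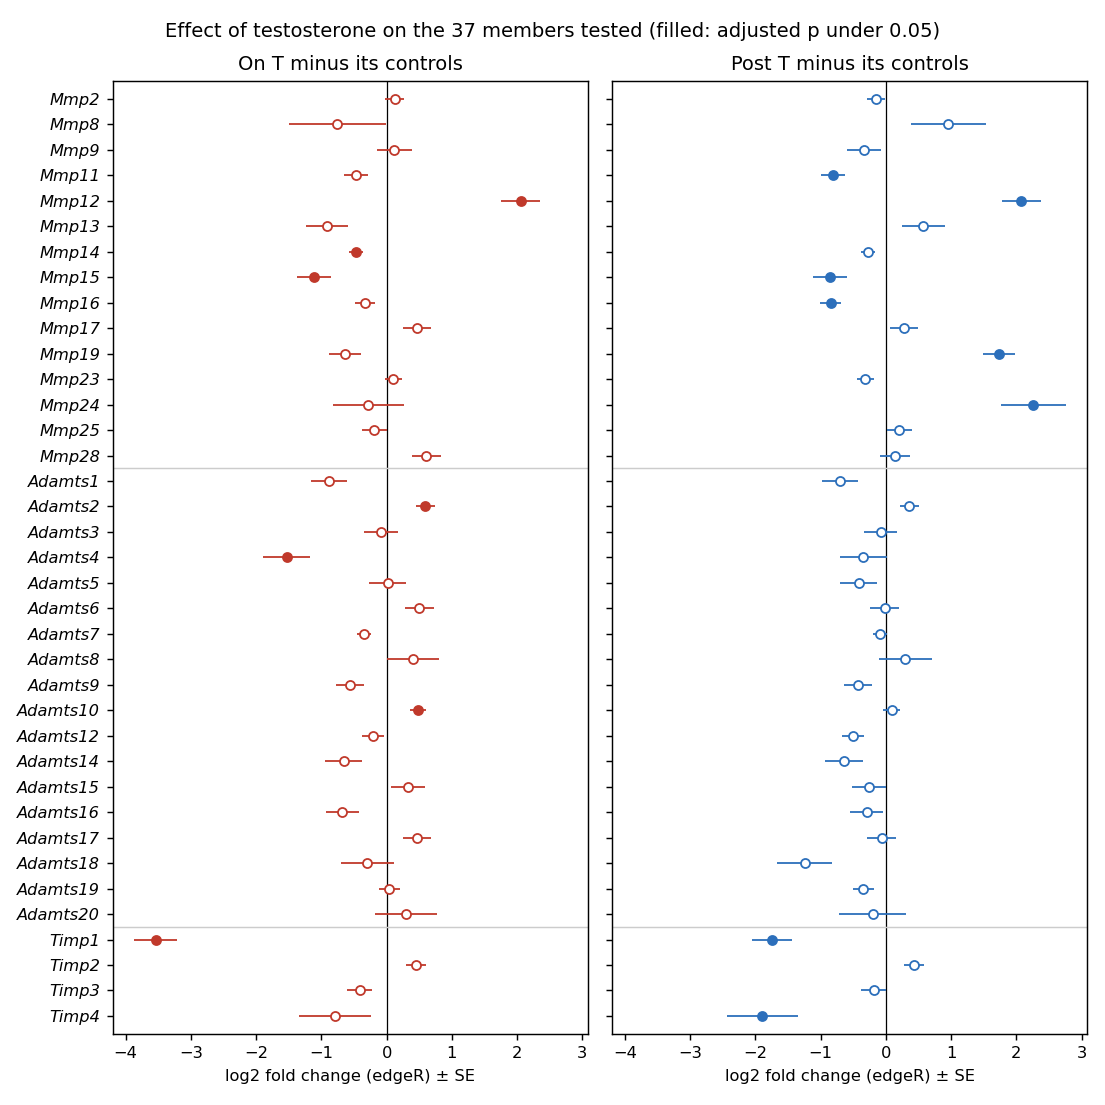
The log2 fold change of each of the 37 genes tested is plotted with its standard error for On T (left, red) and Post T (right, blue), each against its own controls, with filled points for an adjusted p under 0.05. Timp1 is the lowest point on testosterone at -3.54, and Mmp12 stands near 2 in both panels.

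The largest change among the inhibitors was that of Timp1 on testosterone. This gene encodes a secreted, inducible TIMP with growth-factor-like actions on several cell types. Timp1 stood at 70.9, 223, 138 and 194 CPM in the 4 Control for On T libraries and at 13.8, 13.5, 15.3 and 11.3 CPM in the On T libraries. No On T library came near the lowest control, and the spread within On T was small beside that of the controls. The fall on testosterone was 11.6-fold (156 ± 66.9 to 13.5 ± 1.67 CPM, SD, n = 4, log2 -3.54, SE 0.33, edgeR adjusted p = 4.14e-06). In Control for Post T Timp1 stood at 41.5, 87.5, 103 and 110.4 CPM, and in Post T at 20.9, 30.5, 27.0 and 24.4 CPM. These groups did not overlap either, although the lowest control, library 1, lay close to the highest Post T library. Post testosterone Timp1 fell 3.34-fold (85.6 ± 30.9 to 25.7 ± 4.06 CPM, log2 -1.74, SE 0.31, edgeR adjusted p = 0.000815).

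The Timp1 fall was smaller post testosterone than on testosterone, a log2 difference of 1.80 (SE 0.43, edgeR adjusted p = 0.0274). This difference of effects was lost under both limma fits of TPM (1.71 and 1.73, limma adjusted p = 0.0937 and 0.0923). It was also lost without Control for On T library 2 (1.59, edgeR adjusted p = 0.0531) or 4 (1.68, edgeR adjusted p = 0.0592), On T library 1 (1.81, edgeR adjusted p = 0.0528) or 4 (1.73, edgeR adjusted p = 0.0616), and Post T library 2 (1.71, edgeR adjusted p = 0.0568) or 3 (1.77, edgeR adjusted p = 0.0563). The falls themselves were called under all settings tried.

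Summed markers of luteal cells were also lower in both treated groups than in their controls. Their summed level was 3888 to 4720 TPM in Control for On T and 499 to 1776 in On T, with 5 of 6 lower, and 3102 to 5427 TPM in Control for Post T and 1077 to 2535 in Post T, with 4 of 6 lower. No luteal marker was at 0 in the controls. Single libraries were mixed. Control for On T library 2 (4720 TPM and 223 CPM) and On T library 3 (1776 TPM and 15.3 CPM) were highest of their group in both the luteal sum and Timp1. Control for Post T library 1 had the highest luteal sum (5427 TPM) and the lowest Timp1 of the controls (41.5 CPM). Post T library 4 had the highest luteal sum of its group (2535 TPM), with Timp1 at 24.4 CPM, below library 2 (30.5 CPM). The 4 theca markers summed to 3724 to 3995 TPM in Control for On T and 569 to 2688 in On T, with 1 lower. In the older pair they summed to 2523 to 4186 and 1002 to 2821 TPM, with 0 lower and 1 higher. The median log2 fold change of the theca markers was 0.20 on testosterone and 0.83 post testosterone, although their sums were lower. Cyp11a1 was in both the theca and the luteal list, so these sums were not independent. In whole tissue, fewer cells of a type and less RNA per cell cannot be told apart, and the part of these markers in the Timp1 result was not tested.

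Timp1 lies on the plus strand of the X chromosome of GRCm38, at chrX:20870166-20874735, as a protein-coding gene inside the body of Syn1, which runs on the minus strand. No exon base of Timp1 overlaps an exon on that strand. The 250 bases before its start (chrX:20869916-20870165, plus strand, 5′ to 3′, RefSeq, GRCm38.p6) are shown because Timp1 had the largest change on testosterone among the 37 genes tested. They hold none of the letters searched for AP-1, RUNX and PU.1 factors or for a TATA box given further on, and a CCAAT box once, 190 bases before the start.
Timp1: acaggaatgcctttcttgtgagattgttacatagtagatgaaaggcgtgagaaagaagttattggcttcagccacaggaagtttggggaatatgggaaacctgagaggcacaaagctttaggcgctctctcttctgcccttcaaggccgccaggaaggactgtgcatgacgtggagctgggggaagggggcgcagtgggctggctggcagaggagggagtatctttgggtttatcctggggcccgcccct

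Timp2, which inhibits MMPs and also takes part in the activation of pro-MMP2 by MMP14, did not pass the test. Its libraries stood at 301, 308, 279 and 345 CPM in Control for On T and at 416, 554, 313 and 408 CPM in On T. They stood at 233, 357, 322 and 365 CPM in Control for Post T and at 412, 428, 457 and 421 CPM in Post T. The first pair of groups overlapped through On T library 3, while all Post T libraries lay above their controls. The log2 difference was 0.46 on testosterone (SE 0.15, edgeR adjusted p = 0.0766) and 0.43 post testosterone (SE 0.15, edgeR adjusted p = 0.0843). Leaving out On T library 3 (0.59, edgeR adjusted p = 0.0165) or using DESeq2 (0.47, DESeq2 adjusted p = 0.0323) gave a call on testosterone. Post testosterone it was called with the 2 least alike libraries left out (0.33, edgeR adjusted p = 0.0467).

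Timp3 encodes the matrix-bound TIMP with the widest range of targets. Its libraries read 289.6, 443, 238 and 414 CPM in Control for On T against 241, 345, 229.9 and 224 CPM in On T. In the older pair they read 251, 346, 365 and 403 CPM in Control for Post T against 248, 293, 332 and 326 CPM in Post T. The groups overlapped in both comparisons, and neither passed (log2 -0.41, SE 0.20, edgeR adjusted p = 0.227, and -0.19, SE 0.20, edgeR adjusted p = 0.651). In the annotation 21.3% of Timp3 exon bases overlap exons of Syn3 on the other strand, and Syn3 itself was at 1.21 to 2.42 CPM.

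Timp4, the least abundant TIMP, was at 0.562, 1.97, 0.664 and 2.40 CPM in Control for On T and at 0.933, 0.524, 1.04 and 0.664 CPM in On T. It was at 5.42, 0.999, 1.24 and 3.96 CPM in Control for Post T and at 0.787, 1.16, 0.679 and 0.496 CPM in Post T. Control for Post T libraries 1 and 4 were far above the other two, which were close to the Post T libraries. Timp4 was called lower post testosterone (log2 -1.89, SE 0.55, edgeR adjusted p = 0.0308) and not on testosterone (log2 -0.79, SE 0.55, edgeR adjusted p = 0.44). The call was lost under both limma fits (-0.62 and -1.28, limma adjusted p = 0.122 and 0.151). It was lost too without Control for Post T library 1 (-1.40, edgeR adjusted p = 0.121) or 4 (-1.70, edgeR adjusted p = 0.0943), and without Post T library 1 (-1.88, edgeR adjusted p = 0.0755), 3 (-1.84, edgeR adjusted p = 0.0817) or 4 (-1.70, edgeR adjusted p = 0.0983).

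**Figure D2:**
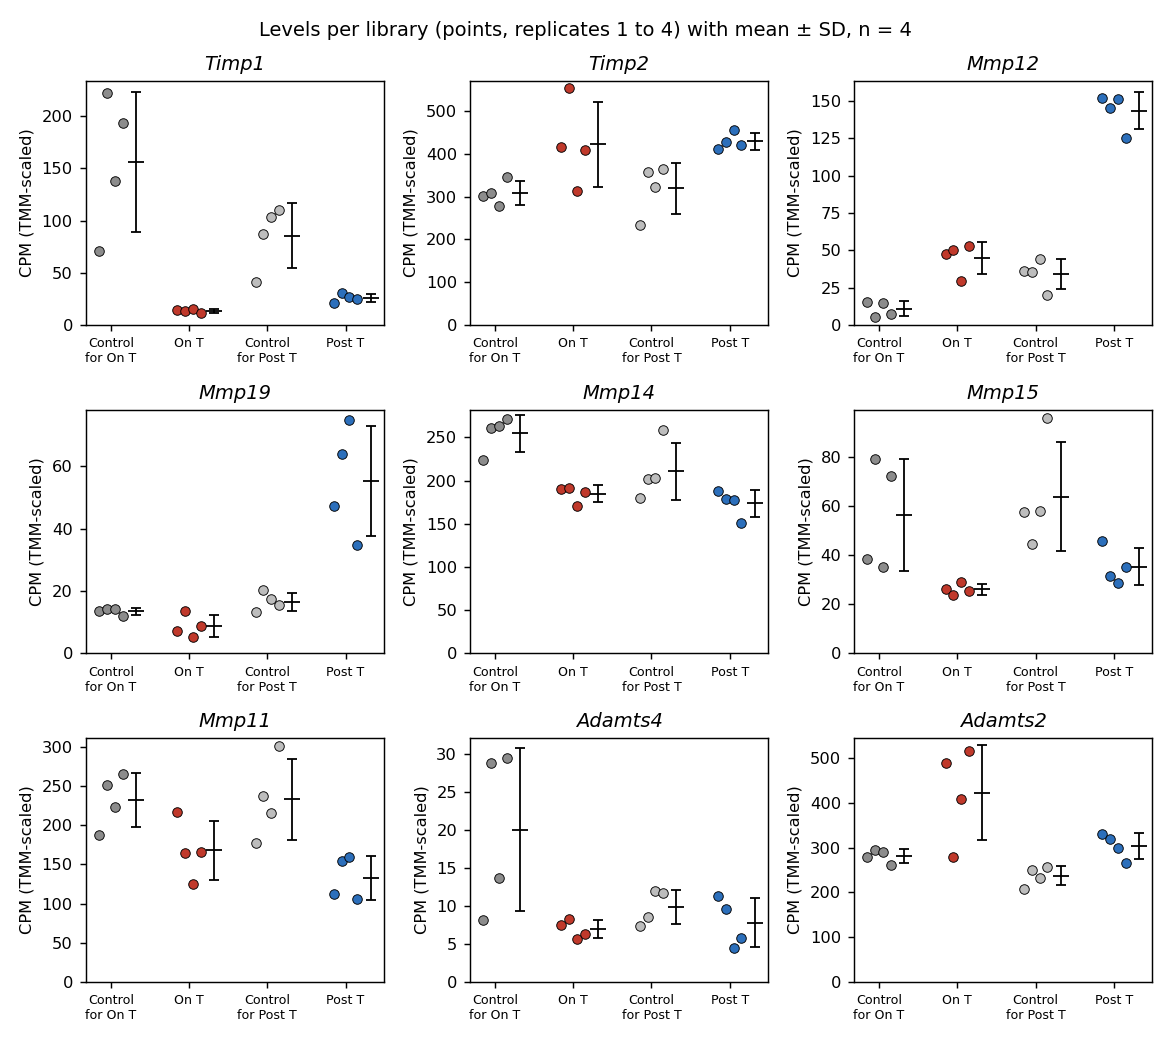
CPM scaled by the trimmed mean of M values (TMM) is plotted for 9 genes, with 1 point per library in replicate order and the mean ± SD of 4 libraries beside each group. The On T and Post T points of Timp1 lie below all of their controls, and the Post T points of Mmp12 and Mmp19 lie above all of theirs.

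The largest rise on testosterone was in Mmp12, the macrophage elastase, which degrades elastin and is made mainly by macrophages. Post testosterone the fitted rise of Mmp24, a gene of low counts described further on, was larger. Mmp12 stood at 15.3, 5.29, 14.7 and 7.56 CPM in Control for On T and at 47.2, 50.1, 29.1 and 53.0 CPM in On T. In Control for Post T it stood at 36.4, 35.4, 44.4 and 20.1 CPM, and in Post T at 151.8, 145, 151.6 and 126 CPM. Neither treated group overlapped its controls, and the older controls lay in the range of, or below, the On T mice. The rise was 4.15-fold on testosterone (log2 2.05, SE 0.30, edgeR adjusted p = 0.00032) and 4.22-fold post testosterone (log2 2.08, SE 0.29, edgeR adjusted p = 9.8e-05). The log2 difference between these effects was 0.02 (SE 0.41, edgeR adjusted p = 0.99).

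The 10 macrophage markers summed to 389 to 550.1 TPM in Control for On T, 657 to 1257 in On T, 596 to 1341 in Control for Post T and 4250 to 5943 in Post T. On testosterone 3 of the 10 were called higher (4.24% of all genes tested), and post testosterone 6 of the 10 (7.49%), and none was at 0. Cd68, a lysosomal glycoprotein of macrophages, rose by 1.17 on testosterone (log2, SE 0.22, edgeR adjusted p = 0.00294) and by 2.61 post testosterone (SE 0.23, edgeR adjusted p = 8.01e-07), and it rose more post testosterone (difference 1.44, edgeR adjusted p = 0.0149). Adgre1, the F4/80 surface receptor, was at 14.3 and 14.6 CPM in Control for On T and On T and at 16.0 and 22.6 CPM in the older pair, with no call. The part of these markers in the Mmp12 result was not tested.

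Mmp19, a soluble MMP also made by macrophages and vascular cells, changed in a different way. It was at 13.6, 14.3, 14.1 and 12.0 CPM in Control for On T and at 7.27, 13.6, 5.26 and 8.64 CPM in On T. It was at 13.2, 20.1, 17.4 and 15.5 CPM in Control for Post T and at 47.4, 63.9, 74.7 and 34.7 CPM in Post T. On T library 2 alone overlapped its controls, and all Post T libraries lay above theirs. The rise post testosterone was 3.32-fold (log2 1.73, SE 0.25, edgeR adjusted p = 0.000125). On testosterone the log2 difference was -0.64 (SE 0.25, edgeR adjusted p = 0.138), and it was called without On T library 2 (-0.93, edgeR adjusted p = 0.021). The log2 difference between the effects was 2.37 (SE 0.35, edgeR adjusted p = 0.00126), and this was called under all settings tried. The macrophage markers given above were also highest in Post T, and their part in this result was not tested.

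Mmp19 lies on the plus strand at chr10:128790910-128800824 of GRCm38. There 28.3% of its exon bases overlap exons of Gm47093 and Tmem198b on the minus strand, and the use of strand in counting is not stated. Tmem198b was at 13.4 to 20.7 CPM over all 16 libraries, and its groups overlapped.

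Mmp12, Mmp13, Mmp3, Mmp10, Mmp8 and Mmp7 are 6 of the 10 MMP genes in a cluster on chromosome 9 of GRCm38 that runs from Mmp13 (start 7272514) to Mmp7 (end 7699585). AP-1 is the factor of FOS and JUN proteins that is classically tied to inducible MMP promoters. The letters TGANTCA, which read alike on both strands, were found within 250 bases before the start in 5 of 29 RefSeq promoter entries of 26 family genes, and in 6.75% of all 32851 entries. This motif was chosen after values were seen, and a match is only a description. All 5 were in this cluster, at 35 (Mmp13), 44 (Mmp12), 46 (Mmp3), 63 (Mmp10) and 63 (Mmp7) bases before the start of the entry. Mmp12 and Mmp7 each have another entry, which holds no match. For Mmp12 that other entry, with its start at 7344397, is the one near the start of the annotated gene (7344381). The bases just after its start were not found unbroken in a GENCODE transcript of Mmp12. Those after the start of the entry with the match (7347374) were. The 80 bases before each start are shown, plus strand, 5′ to 3′, with the match in capitals, since these neighbours share the letters. They are Mmp13 at chr9:7272434-7272513, Mmp12 at chr9:7347294-7347373, Mmp3 at chr9:7445742-7445821, Mmp10 at chr9:7502262-7502341 and Mmp7 at chr9:7692010-7692089 (GRCm38.p6).
Mmp13: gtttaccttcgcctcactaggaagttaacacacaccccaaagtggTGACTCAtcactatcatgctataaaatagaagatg
Mmp12: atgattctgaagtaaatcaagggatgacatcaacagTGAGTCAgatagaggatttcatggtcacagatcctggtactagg
Mmp3: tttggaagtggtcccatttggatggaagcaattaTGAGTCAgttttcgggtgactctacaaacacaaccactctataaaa
Mmp10: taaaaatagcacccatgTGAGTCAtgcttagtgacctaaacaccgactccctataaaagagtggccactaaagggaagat
Mmp7: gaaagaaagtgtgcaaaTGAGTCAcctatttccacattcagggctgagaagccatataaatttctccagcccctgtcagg

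Other letters were searched on both strands of the same windows. The RUNX letters TGTGGT were found in 4 of the 29 entries of the family and in 14% of all entries. A core of PU.1 sites, GAGGAA, was found in 5 of the 29 and in 23.3% of all. The TATA box letters TATAAA were found in 5 of the 29 and in 12.4% of all, and those of the CCAAT box in 7 of the 29 and in 33.8% of all.

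The neighbours of Mmp12 in this cluster were low. Mmp13, a collagenase, averaged 1.23 ± 0.295 CPM in Control for On T and 0.650 ± 0.132 in On T, and 0.562 ± 0.311 in Control for Post T and 0.854 ± 0.135 in Post T. Neither difference passed (log2 -0.91, SE 0.32, edgeR adjusted p = 0.0897, and 0.57, SE 0.33, edgeR adjusted p = 0.338). The effects differed by 1.48 (edgeR adjusted p = 0.104), which was called by DESeq2 (1.46, DESeq2 adjusted p = 0.0439) and without Control for Post T library 4 (1.87, edgeR adjusted p = 0.0318). Mmp8, the neutrophil collagenase, averaged 0.0849 to 0.476 CPM over the 4 groups, with no call. Neutrophil markers summed to 3.11 to 8.66 TPM in Control for Post T and 12.6 to 27.0 in Post T, with 3 of 4 tested higher, while Ly6g and Elane were at or near 0, and their part was not tested.

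Mmp10, a stromelysin, did not pass the filter on low counts. It had 7, 39, 11 and 40 counts in the Control for On T libraries and 0 in each On T library. In Control for Post T it had 0, 1, 3 and 3 counts, and in Post T 0 in each. Against a floor of 3 counts over the group, Mmp10 was at least 32.2-fold lower on testosterone, and the floor covers counting error only. It was called lower on testosterone with no filter (edgeR adjusted p = 0.000724) and with the 2 least alike libraries left out (edgeR adjusted p = 0.0125). Mmp3 had 3, 11, 18 and 21 counts and Mmp7 had 0, 17, 13 and 3 counts summed over Control for On T, On T, Control for Post T and Post T, and no fold is given for them. Mmp3 and Mmp10 share 5 windows of 100 bases, 0.294% and 0.308% of theirs.

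Among the other secreted MMPs, Mmp11 was the one that changed. Mmp11 encodes stromelysin-3, which is activated inside the cell by furin and acts weakly on matrix. It stood at 187, 252, 224 and 265 CPM in Control for On T and at 217, 164, 125 and 166 CPM in On T, which overlapped. In Control for Post T it stood at 178, 238, 216 and 302 CPM and in Post T at 112, 154, 159.9 and 106 CPM. Post T lay below its controls in each library, a fall of 1.76-fold (log2 -0.81, SE 0.19, edgeR adjusted p = 0.00761). On testosterone the log2 difference was -0.47 (SE 0.19, edgeR adjusted p = 0.146), and the 2 effects did not differ by the test (-0.35, SE 0.26, edgeR adjusted p = 0.613).

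The gelatinases showed no call. Mmp2, which cuts gelatin and basement membrane collagen, stood at 104, 90.6, 93.0 and 89.3 CPM in Control for On T and at 90.3, 130.4, 80.3 and 109.6 CPM in On T. It stood at 75.5, 103, 108 and 89.8 CPM in Control for Post T and at 90.8, 82.8, 93.1 and 71.8 CPM in Post T. The groups overlapped in both comparisons (log2 0.12, SE 0.14, edgeR adjusted p = 0.661, and -0.16, SE 0.14, edgeR adjusted p = 0.588). Mmp9 averaged 4.43 to 6.70 CPM over the 4 groups. Of the remaining soluble or shed MMPs, Mmp23 averaged 30.1 to 42.1 CPM and Mmp28 3.21 to 4.91 CPM, with no call in either comparison. Mmp28 was called higher on testosterone without On T library 3 (0.80, edgeR adjusted p = 0.0214, against 0.61, edgeR adjusted p = 0.11).

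The 6 membrane-type MMPs are anchored at the cell surface. Of them 2 fell on testosterone (5.03% of all genes tested), and post testosterone 2 fell and 1 rose (4.81% and 7.49% of all genes tested). Mmp14, the most abundant, is the surface collagenase that activates pro-MMP2. It stood at 224, 261, 263 and 272 CPM in Control for On T and at 190.2, 192, 171 and 187 CPM in On T. In Control for Post T it stood at 179, 202, 203 and 258 CPM and in Post T at 188, 178, 177 and 151 CPM. All On T libraries lay below their controls, and the older groups overlapped. The fall on testosterone was 1.38-fold (log2 -0.46, SE 0.11, edgeR adjusted p = 0.00985), and post testosterone the log2 difference was -0.28 (SE 0.11, edgeR adjusted p = 0.106). The latter was called with the 2 least alike libraries left out (-0.33, edgeR adjusted p = 0.0478).

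Mmp15, another collagen-cutting member at the surface, was at 38.1, 79.1, 35.1 and 72.0 CPM in Control for On T and at 26.3, 23.5, 28.8 and 25.3 CPM in On T. It was at 57.3, 44.3, 57.8 and 95.5 CPM in Control for Post T and at 45.8, 31.4, 28.5 and 35.3 CPM in Post T. On T lay below all its controls, of which libraries 2 and 4 were about as high as each other and well above 1 and 3. Mmp15 fell on testosterone (log2 -1.11, SE 0.26, edgeR adjusted p = 0.0126), a call lost without Control for On T library 2 (-0.89, edgeR adjusted p = 0.0542) or 4 (-0.95, edgeR adjusted p = 0.0514). The older groups overlapped, and the call post testosterone (log2 -0.86, SE 0.26, edgeR adjusted p = 0.0397) was lost in 10 alternatives. These include leaving out Control for Post T library 1 (-0.88, edgeR adjusted p = 0.0571), 3 (-0.88, edgeR adjusted p = 0.0582) or 4 (-0.59, edgeR adjusted p = 0.175), or Post T library 2 (-0.79, edgeR adjusted p = 0.108), 3 (-0.77, edgeR adjusted p = 0.121) or 4 (-0.84, edgeR adjusted p = 0.0882).

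Mmp16 is a further transmembrane member. It stood at 6.72, 7.13, 6.59 and 7.19 CPM in Control for On T against 5.73, 5.31, 5.70 and 5.29 CPM in On T. In the older pair it stood at 6.20, 7.56, 7.88 and 7.75 CPM in Control for Post T against 4.25, 5.35, 2.75 and 3.97 CPM in Post T. Both treated groups lay below their controls in each library, and only the difference post testosterone passed (log2 -0.85, SE 0.16, edgeR adjusted p = 0.00135, against -0.33, SE 0.16, edgeR adjusted p = 0.23). The difference between these effects did not pass (-0.52, SE 0.22, edgeR adjusted p = 0.28).

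Mmp24, known mainly from neurons, was low in all groups. It stood at 0.238, 0.271, 0.230 and 0.553 CPM in Control for On T and at 0.152, 0.328, 0.463 and 0.144 CPM in On T. In Control for Post T it stood at 0.195, 0.187, 0.622 and 0.123 CPM and in Post T at 1.89, 1.22, 0.611 and 1.67 CPM. Post T library 3 was level with Control for Post T library 3, and the other Post T libraries were above all controls. Mmp24 rose post testosterone (log2 2.26, SE 0.50, edgeR adjusted p = 0.0054) on 37 counts in controls and 210 in Post T, whereas on testosterone the difference was -0.28 (SE 0.54, edgeR adjusted p = 0.81). The rise post testosterone was 1.98 to 3.04 with a library left out, and the highest value was without Control for Post T library 3 (3.04, edgeR adjusted p = 0.000855). On the log2(TPM + 1) and log2(TPM + 0.1) scales it was 0.35 and 1.31 (limma adjusted p = 0.0126 and 0.0157). The effects differed by 2.54 (SE 0.74, edgeR adjusted p = 0.0791), which was called by DESeq2 (2.51, DESeq2 adjusted p = 0.0282) and without Control for Post T library 3 (3.31, edgeR adjusted p = 0.0156). In the annotation 13.6% of Mmp24 exon bases overlap BC029722 on the other strand. That gene was at 32.9 to 39.6 CPM in Control for Post T and 45.1 to 53.2 in Post T, so it moved the same way, and its part in the Mmp24 counts was not tested. Mmp17 (10.9 to 15.1 CPM over the 4 group means) and Mmp25 (1.32 to 1.56 CPM) had no call.

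Of the 18 ADAMTS genes, 2 rose and 1 fell on testosterone (4.24% and 5.03% of all genes tested). None passed post testosterone (7.49% higher and 4.81% lower of all genes tested). Among the 7 that cut aggrecan or versican, Adamts4 fell on testosterone. It stood at 8.21, 28.8, 13.7 and 29.5 CPM in Control for On T and at 7.52, 8.29, 5.70 and 6.24 CPM in On T. In Control for Post T it stood at 7.36, 8.53, 12.0 and 11.7 CPM and in Post T at 11.3, 9.63, 4.41 and 5.78 CPM. Control for On T library 1 lay within the On T range, and libraries 2 and 4 were the high ones. The fall was 2.89-fold (log2 -1.53, SE 0.36, edgeR adjusted p = 0.0122). It was lost without Control for On T library 4 (-1.27, edgeR adjusted p = 0.0528) and under both limma fits (-1.09 and -1.34, limma adjusted p = 0.0501 and 0.0535). Post testosterone the log2 difference was -0.34 (SE 0.36, edgeR adjusted p = 0.649).

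Adamts1, the ovulatory versicanase, stood at 59.8, 113, 46.2 and 98.5 CPM in Control for On T and at 35.2, 54.9, 34.6 and 47.5 CPM in On T. It stood at 43.8, 43.6, 55.8 and 82.8 CPM in Control for Post T and at 37.4, 30.9, 25.2 and 44.7 CPM in Post T. Both pairs overlapped. The log2 difference was -0.88 on testosterone (SE 0.28, edgeR adjusted p = 0.0564) and -0.71 post testosterone (SE 0.28, edgeR adjusted p = 0.118), and neither was called. On testosterone it was called in 7 alternatives, among them DESeq2 (-0.86, DESeq2 adjusted p = 0.0204), no filter (-0.87, edgeR adjusted p = 0.0401) and leaving out Control for On T library 3 (-1.07, edgeR adjusted p = 0.0191) or 1 (edgeR adjusted p = 0.0443). Adamts5 and Adamts9 averaged 39.8 to 63.2 and 49.8 to 77.5 CPM over the 4 groups, Adamts15 3.58 to 4.64 CPM, and Adamts8 and Adamts20 under 1 CPM, all with no call. Adamts9 was called lower on testosterone without Control for On T library 3 (-0.71, edgeR adjusted p = 0.041, against -0.56, edgeR adjusted p = 0.12).

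Within Control for On T, libraries 2 and 4 were both above libraries 1 and 3 for 17 of the 37 genes (45.9%), including Timp1 to Timp4, Adamts1, Adamts4, Adamts9, Mmp11 and Mmp15. The same held for 28.3% of all genes tested. Both were below libraries 1 and 3 for 6 of the 37 (16.2%), namely Mmp2, Mmp12, Adamts5, Adamts6, Adamts10 and Adamts12, and for 26.8% of all genes. The first pattern was noticed in the values, and what sets those libraries apart was not tested.

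The procollagen N-proteinases remove the amino-terminal propeptide of fibrillar collagens. Adamts2 had the highest mean TPM of the 18 ADAMTS genes in each group. In Control for Post T its mean (49.96 TPM) was close to that of Adamts10 (47.98 TPM), and their ranges overlapped (38.45 to 55.91 and 35.25 to 55.47 TPM). In On T library 2 Adamts10 was the higher (67.25 against 59.09 TPM). Adamts2 stood at 279, 295, 289.7 and 260.3 CPM in Control for On T and at 489, 279, 409.9 and 516 CPM in On T. In Control for Post T it stood at 209, 251, 232 and 257 CPM and in Post T at 331, 319, 299 and 267 CPM. On T library 2 lay within the controls and the other On T libraries were well above them, and all Post T libraries were above theirs. Adamts2 rose 1.51-fold on testosterone (log2 0.59, SE 0.14, edgeR adjusted p = 0.0156), and with the 2 least alike libraries left out the log2 change was 0.75 (edgeR adjusted p = 0.000134). The call was lost under both limma fits (0.52 for each, limma adjusted p = 0.0706 and 0.0699) and in a fit of the 8 libraries compared (0.60, edgeR adjusted p = 0.053). Post testosterone the log2 difference was 0.36 (SE 0.14, edgeR adjusted p = 0.137), called in the fit of 8 libraries (0.35, edgeR adjusted p = 0.0499) and with the 2 least alike libraries left out (0.32, edgeR adjusted p = 0.0302).

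Some genes of its collagen substrates went the other way on testosterone, while Col1a2 was not called. Col3a1 fell (log2 -0.68, SE 0.13, edgeR adjusted p = 0.00375) as did Col1a1 (-0.63, SE 0.19, edgeR adjusted p = 0.0418), while Dcn and Pdgfra, further stromal genes, rose. The 6 stroma markers summed to 913 to 1092 TPM in Control for On T and 790 to 1508 in On T, and of 4 smooth muscle and pericyte markers 2 rose (549 to 585 TPM against 711 to 1354). On T library 2 held the highest value of both sums. Their part in the Adamts2 result was not tested. Adamts3 and Adamts14, the other N-proteinases, averaged 1.27 to 1.47 and 2.50 to 4.38 CPM, with no call. Adamts14 was called lower on testosterone with the 2 least alike libraries left out (-0.93, edgeR adjusted p = 0.0379, against -0.66, edgeR adjusted p = 0.183).

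Adamts10, one of 3 ADAMTS genes tied to fibrillin microfibrils, rose on testosterone. It stood at 101, 89.8, 98.0 and 90.6 CPM in Control for On T and at 114, 159.6, 118 and 137 CPM in On T. In the older pair it stood at 93.1, 131, 132 and 107 CPM in Control for Post T and at 116, 134, 138 and 105 CPM in Post T. All On T libraries lay above their controls, and the older groups overlapped. The rise was 1.39-fold (log2 0.48, SE 0.13, edgeR adjusted p = 0.0261), and the difference post testosterone was 0.09 (SE 0.13, edgeR adjusted p = 0.762). The call on testosterone was lost under both limma fits (0.43 and 0.44, limma adjusted p = 0.0884 and 0.0861). It was lost too without Control for On T library 2 (0.46, edgeR adjusted p = 0.0785) or 4 (0.47, edgeR adjusted p = 0.0782), and leaving out On T library 2 (0.38, edgeR adjusted p = 0.0801) or 4 (0.48, edgeR adjusted p = 0.064) ended it as well. Adamts6 and Adamts17 had log2 differences of 0.50 and 0.46 on testosterone and -0.01 and -0.07 post testosterone, with no call.

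The other ADAMTS genes were not called by edgeR with all libraries. Adamts7 and Adamts12, which cut cartilage oligomeric matrix protein, averaged 14.7 to 18.7 and 21.3 to 32.8 CPM. All On T libraries lay below their controls for Adamts7 (log2 -0.35, SE 0.11, edgeR adjusted p = 0.0556). It was called lower there by DESeq2 (-0.33, DESeq2 adjusted p = 0.0275), at 1 CPM in 4 libraries (-0.34, edgeR adjusted p = 0.0461) and without Control for On T library 1 (-0.41, edgeR adjusted p = 0.0361). For Adamts12 the log2 difference post testosterone was -0.50 (SE 0.17, edgeR adjusted p = 0.0701). It was called lower by DESeq2 (-0.51, DESeq2 adjusted p = 0.0391), without Control for Post T library 1 (-0.61, edgeR adjusted p = 0.0197) and with the 2 least alike libraries left out (-0.61, edgeR adjusted p = 0.00628). Adamts19, a gene of the gonad and heart valves, averaged 31.6 to 41.7 CPM. Adamts16 averaged 1.97 to 3.18 CPM and Adamts18 0.135 to 0.324 CPM. Adamts18 had a log2 difference of -1.25 post testosterone (SE 0.42, edgeR adjusted p = 0.0665), called without Post T library 2 (-1.60, edgeR adjusted p = 0.0337) and with the replicate block (-1.28, edgeR adjusted p = 0.0425).

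To compare genes with each other, levels per transcript length (TPM) were summed over each class, as a description with no test. In Control for On T, Timp1 held 38.7 to 62.2% of the summed TIMP RNA, and in On T 7.58 to 12.1%. The Timp2 share went from 21.0 to 39.5% up to 63.4 to 70.5%. In Control for Post T Timp1 held 30.1 to 45.02% and Timp2 33.4 to 44.1%, and in Post T 12.7 to 16.6% and 60.1 to 66.5%. Timp1 had the highest TIMP mean in both control groups, at 348 and 191 TPM, and Timp2 in both treated groups, at 219 and 230.2 TPM. In Control for Post T the 2 ranges overlapped (78.1 to 253 and 115 to 193 TPM), so the order of those neighbours was within their spread.

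**Figure D3:**
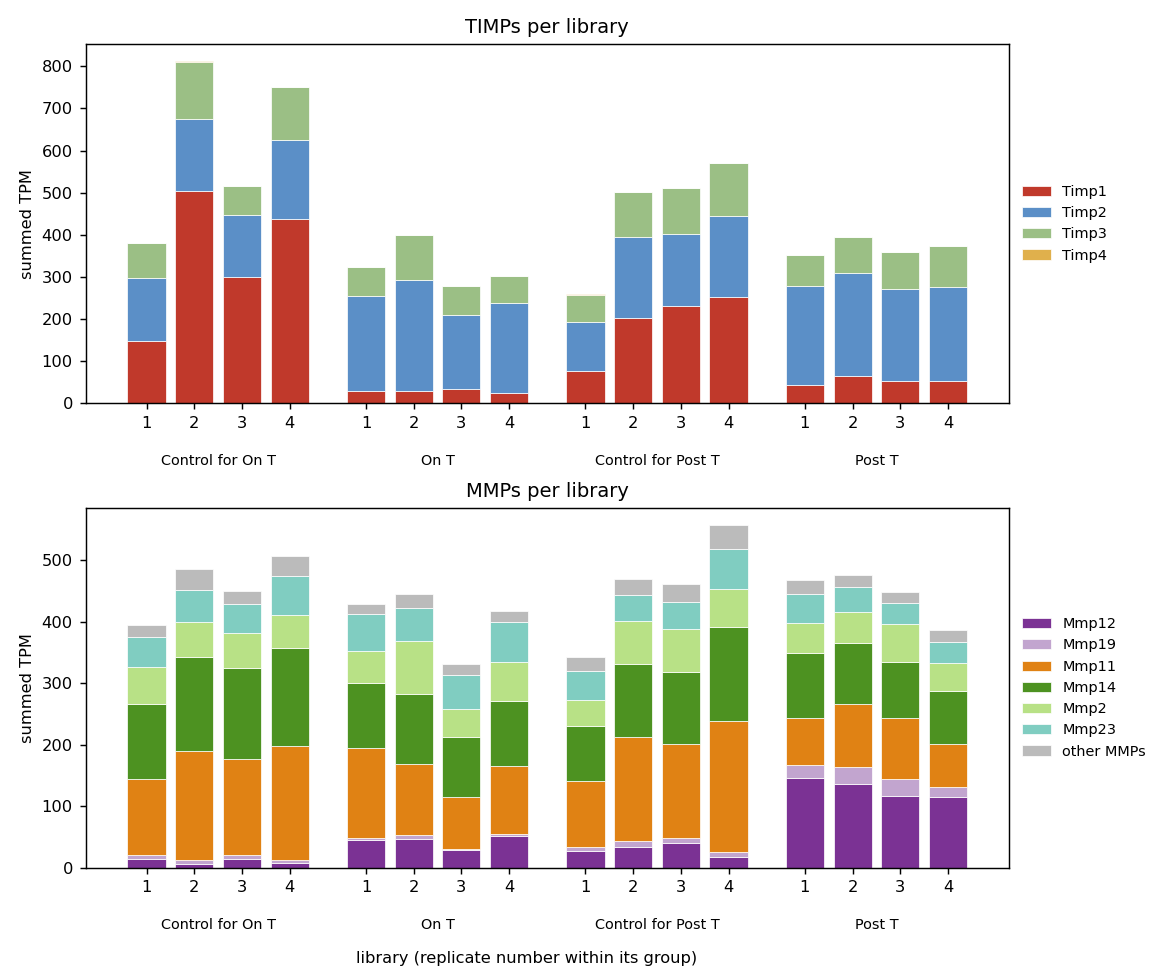
Summed TPM of the TIMPs (upper panel) and the MMPs (lower panel) is stacked by gene for each of the 16 libraries, with replicate numbers under the bars. The Timp1 block shrinks from 38.7 to 62.2% of the TIMP bar in Control for On T to 7.58 to 12.1% in On T, and the Mmp12 block is widest in Post T at 25.9 to 31.2% of the MMP bar.

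Among the MMPs, Mmp11 and Mmp14 led in Control for On T (160.4 and 146 TPM) with ranges that overlapped. Mmp12 held 1.11 to 3.58% of MMP RNA in Control for On T and 8.52 to 12.2% in On T. It held 3.23 to 8.77% in Control for Post T and 25.9 to 31.2% in Post T, where it had the highest MMP mean (128 TPM, against 95.3 for Mmp14 and 87.2 for Mmp11). Summed MMP RNA overlapped between groups, at 395 to 506 TPM in Control for On T, 330 to 445 in On T, 342 to 557 in Control for Post T and 386 to 476 in Post T.

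The ratio of summed protease RNA to summed TIMP RNA was 0.857 to 1.46 in Control for On T and 1.60 to 2.16 in On T, with no overlap. In the older mice it was 1.26 to 1.78 in controls and 1.45 to 1.82 in Post T, which overlapped. On the CPM scale, which weights long genes more, the ratio was 1.61 to 2.18 and 1.53 to 2.55 in the younger pair, so the separation was seen per length and not by CPM. Summed TIMP RNA was 381 to 812 TPM in Control for On T and 278 to 399 in On T. These are RNA ratios and no measure of enzyme activity, and Control for On T libraries 2 and 4 had the highest TIMP sums.

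**Figure D4:**
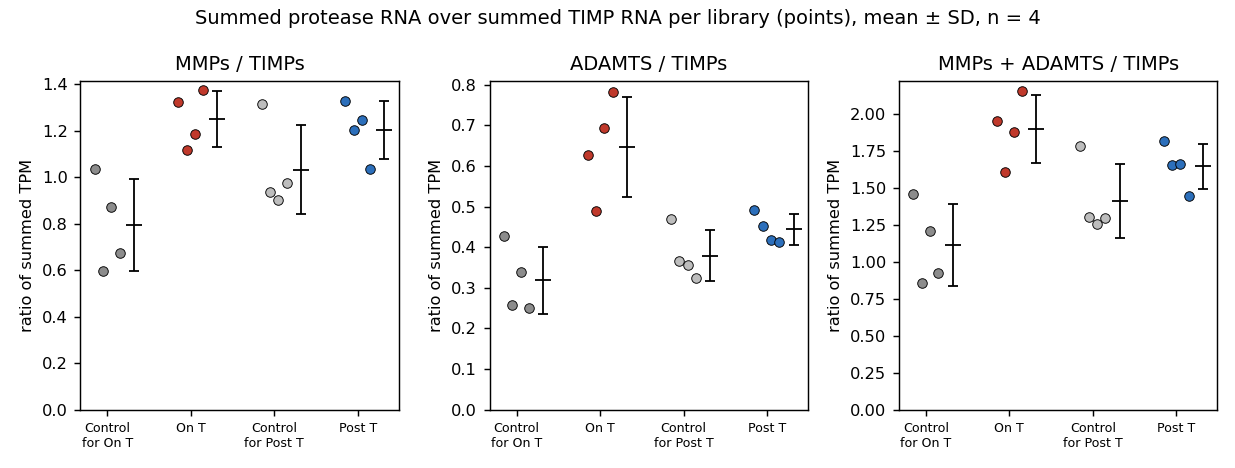
The ratio of summed MMP (left), ADAMTS (middle) and all protease (right) TPM to summed TIMP TPM is plotted per library with the mean ± SD of 4. On T libraries lie above Control for On T in each panel, at 1.60 to 2.16 against 0.857 to 1.46 on the right, while Post T overlaps its controls in all 3.

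Between the control groups, which differ in age and cohort, none of the 37 genes was called higher or lower by edgeR, and neither was any of the 18833 genes (0% and 0%), with 1892 at an unadjusted p under 0.05. DESeq2 called 135 higher and 44 lower in the older controls, with Mmp12 as the only family gene. Mmp12 was higher in the older controls by its fitted value (log2 1.65, SE 0.30, edgeR adjusted p = 0.104), with ranges that did not overlap (5.29 to 15.3 and 20.1 to 44.4 CPM). It was called with no filter (edgeR adjusted p = 0.0177) and without Control for On T library 1 (edgeR adjusted p = 0.0497). Timp1 was 0.87 lower by the fitted value (log2 -0.87, SE 0.30, edgeR adjusted p = 0.31).

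Other inhibitors of these proteases, and genes of the testican (Spock) family, were read from lists of related genes. Of 6 tested, 2 rose and 2 fell on testosterone and 2 fell post testosterone. Beside this and the lists that follow, 4.24% of all genes tested rose and 5.03% fell on testosterone, and 7.49% rose and 4.81% fell post testosterone. Reck, a membrane-anchored inhibitor of MMP14, MMP2 and MMP9, was at 40.2 ± 5.53 CPM in Control for On T and 79.5 ± 12.5 in On T, a log2 rise of 0.98 (SE 0.14, edgeR adjusted p = 0.000282). It was at 41.4 ± 7.87 and 53.0 ± 3.19 CPM in the older pair (log2 0.35, SE 0.14, edgeR adjusted p = 0.126). Spock2, a testican, rose by 0.82 on testosterone (SE 0.10, edgeR adjusted p = 4.53e-05), and that effect was smaller post testosterone (difference -0.69, edgeR adjusted p = 0.00876). A2m, the plasma protease trap, fell by 3.55 post testosterone (SE 0.72, edgeR adjusted p = 0.00285). Its older controls were very uneven, at 4.73 ± 5.42 CPM against 0.393 ± 0.0806 in Post T. In the younger pair A2m was at 0.715 ± 0.168 CPM in Control for On T and 0.906 ± 0.321 in On T. Spock1, at under 0.3 CPM, fell by 1.99 and 2.58 (edgeR adjusted p = 0.0338 and 0.0148).

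In plasminogen activation, which yields plasmin that can activate pro-MMPs, 1 of 6 rose and 2 fell on testosterone, and 2 rose and 1 fell post testosterone. Plat, tissue plasminogen activator, fell in both (96.0 ± 13.9 to 52.5 ± 8.09 CPM, log2 -0.87, edgeR adjusted p = 0.000629, and 74.7 ± 12.9 to 49.5 ± 4.18 CPM, log2 -0.60, edgeR adjusted p = 0.00678). Plaur, the urokinase receptor, rose by 1.92 post testosterone (SE 0.25, edgeR adjusted p = 4.87e-05) and not on testosterone, and these effects differed (2.11, edgeR adjusted p = 0.00233). Serpinf2, the antiplasmin gene, rose in both (1.56 and 1.12, edgeR adjusted p = 0.00253 and 0.0234).

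Of 4 proprotein convertases, which cut the prodomain of furin-activated members such as MMP11, MMP14 and the ADAMTS enzymes, 1 fell on testosterone and 2 fell post testosterone. Furin fell by 0.52 (SE 0.13, edgeR adjusted p = 0.0149) and 0.59 (SE 0.13, edgeR adjusted p = 0.00381), and Pcsk5 by 0.84 post testosterone (SE 0.14, edgeR adjusted p = 0.00047). Of 9 ADAM proteases, 2 fell on testosterone (Adam12, -0.81, and Adam19, -0.78) and post testosterone 1 fell (Adam19, -0.76) and 1 rose (Adam8, 1.85, edgeR adjusted p = 4.13e-05). Adam8, a sheddase of myeloid cells, differed between the effects (1.69, edgeR adjusted p = 0.00831). Of 5 procollagen C-proteinase genes, Pcolce2, an enhancer of that cleavage, fell by 4.03 on testosterone (SE 0.60, edgeR adjusted p = 0.000422), and Tll2 fell by 4.12 post testosterone (SE 0.97, edgeR adjusted p = 0.00853).

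Among the substrates, 9 genes of the hyaluronan and versican matrix were tested. On testosterone 1 rose and 2 fell, and post testosterone 3 rose and 1 fell. Vcan, the versican cut by ADAMTS1, was not called (log2 -0.40, SE 0.23, edgeR adjusted p = 0.336, and -0.66, SE 0.23, edgeR adjusted p = 0.0779). Acan, the aggrecan gene, fell in both (-1.77 and -1.19, edgeR adjusted p = 0.00363 and 0.0283). Cd44, a hyaluronan receptor, fell on testosterone (-0.82, SE 0.19, edgeR adjusted p = 0.00985) and rose post testosterone (1.54, SE 0.19, edgeR adjusted p = 2.21e-05), and the effects differed by 2.35 (edgeR adjusted p = 0.000508). Of 13 elastic fibre and fibrillin genes, 2 rose and 1 fell in each comparison. They were the same 3 genes, Ltbp2 (1.35 and 0.68) and Fbln5 (0.69 and 0.45), which rose, and Ltbp1 (-2.33 and -2.70), a latent TGF-beta binding protein, which fell.

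Of 8 regulators known from the ovulatory control of these proteases, 1 rose and 2 fell on testosterone, and 2 rose and 2 fell post testosterone. Pgr, the progesterone receptor that drives Adamts1 at ovulation, was at 2.24 to 2.79 CPM in all 4 group means and was not called (log2 -0.15, SE 0.35, edgeR adjusted p = 0.848, and 0.02, SE 0.34, edgeR adjusted p = 0.982). Runx2, a factor of luteinising granulosa cells, fell in both comparisons (post testosterone -4.65, SE 0.48, edgeR adjusted p = 4.22e-06). Runx1 fell on testosterone (-0.74, edgeR adjusted p = 0.0279), and Etv4 fell (-1.34, edgeR adjusted p = 0.00127) and Cebpa rose (1.02, edgeR adjusted p = 0.0293) post testosterone. Of 7 ADAMTS-like genes, which lack the protease domain, Adamtsl2 rose post testosterone (0.89, SE 0.14, edgeR adjusted p = 0.000258). Of 6 family genes outside the 40, 1 could be tested: Mmp27, a neighbour of Mmp8 in the chromosome 9 cluster, rose post testosterone (1.71, SE 0.31, edgeR adjusted p = 0.000959).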

How the data were processed

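RNA was measured in 16 libraries, 1 ovary per mouse, with 4 in each of 4 groups. Per the labels, poly(A) RNA was made into directional libraries and sequenced as paired ends. Per the submitters' processing notes, cutadapt 2.3, FastQC 0.11.8, STAR 2.7.8a and RSEM 1.3.3 were used with GRCm38. The annotation release and use of strand in counting are not given in the sources used here. The deposited expected counts, estimated by the authors per gene, were whole numbers when checked. TPM, also deposited, is the authors' level per transcript length and library size. FPKM was not used.

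Counts were tested in R 4.3.3 with edgeR 4.0.16 (quasi-likelihood F test, TMM, filterByExpr with a minimum count of 10, leaving 18833 of 55426 genes). A single fit held all 16 libraries with 1 mean for each group, and p-values were adjusted by Benjamini-Hochberg over all genes tested at 0.05. The spread between libraries of a group came to a common coefficient of variation of 0.179. Standard errors were derived from the fold change and its F statistic. Values per library are TMM-scaled CPM. TPM was used for comparisons between genes and sums.

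The alternatives tried were no filter, 1 CPM in 4 libraries, median-of-ratios size factors, DESeq2 1.42.0, limma 3.58.1 on log2(TPM + 1) and log2(TPM + 0.1), 8-library fits, a replicate block, leaving out each library, and leaving out 2 libraries together, added after seeing the data. On simulated data for the On T comparison, the test recovered 81 of 100 changes of log2 1 and 99 of 100 changes of log2 2, up or down. It made 6 false calls among 18614 genes. Changes were placed only in genes with a mean of at least 1 CPM, and smaller changes were not simulated.

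Library values were given for called genes with a mean of at least 1 CPM in either group compared, plus Timp1 to Timp4, Adamts1, Mmp2 and Mmp14. Other genes were given by range, and lists by counts, with up to 4 called genes of smallest p, and Reck, Vcan, Plat and Pgr whatever their values. One called gene of these lists is not reported here. Members and lists were chosen with earlier results of these data known. Motif letters were chosen after values were seen. Positions came from GENCODE on GRCm38, and promoter sequence from RefSeq (GRCm38.p6), which matched 26 of the 40 genes.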

Additional observations from a re-analysis of the deposited data

Results flagged for a closer look

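Mmp19 had effects that differed between the 2 comparisons, with a log2 difference of 2.37 (SE 0.35, edgeR adjusted p = 0.00126). It was above all controls in 4 of 4 Post T libraries and below all controls in 3 of 4 On T libraries. Timp1 had effects that differed by 1.80 (SE 0.43, edgeR adjusted p = 0.0274), with 4 of 4 treated libraries below all controls in both comparisons, and the loss of this call in 8 alternatives is given above with the values.

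In 64 groups of 4 libraries, 3 held a library far from the others by Dixon's criterion at the 95% level, and chance alone flags about 1 in 20. Mmp24 was highest in Control for On T library 4 at 0.553 CPM, with 0.271 next. It was also highest in Control for Post T library 3 at 0.622 CPM, with 0.195 next. Timp3 was highest in On T library 2 at 345 CPM, with 241 next.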

How the results depend on the processing

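Of 48 results for single genes, 17 were called. Of these, 10 were called under all alternatives that gave a value (Mmp24 was left out by the filter of 1 CPM in 4 libraries). Another 23 were not called under any. A reversal was counted only where all libraries or the alternative gave a call, and 0 were found. Some uncalled values changed sign, such as Mmp2 on testosterone (log2 -0.01 to 0.24). The counts of family genes called moved as follows, with the counts over all genes, which moved too, in parentheses. Genes higher on testosterone numbered 3 (799), with 1 (490 and 487) under limma at either pseudocount and 2 to 5 (470 to 946) with a library left out. Genes lower on testosterone numbered 4 (947), with 2 to 6 (603 to 932) with a library left out. They numbered 8 (1042) with On T library 2 and Control for Post T library 1 both left out. Genes higher post testosterone numbered 3 (1410), and 5 (1559) with those 2 libraries left out. Genes lower post testosterone numbered 5 (905), with 3 (754 and 784) under limma at either pseudocount and 3 to 5 (612 to 882) with a library left out. For the difference of effects, 2 genes (551) were higher, with 4 (783) under DESeq2 and 1 (514 and 425) under limma at either pseudocount. With a library left out 1 to 3 (421 to 650) were higher. In the older controls 0 (0) were higher, with 1 (135) under DESeq2, 1 (17) with no filter and 0 to 1 (0 to 5) with a library left out. The limma fits used another unit and another test, and the fits with libraries left out held fewer samples. What caused these changes was not tested.

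Whether replicate numbers pair the libraries is not settled by these values. The correlation of same-numbered deviations was -0.019 to 0.130 in the younger pair and 0.0422 to 0.233 in the older. The same-numbered treated library was the best match for Control for On T library 2 and for Control for Post T libraries 1 and 2, and not for the other controls. With the replicate block, 3 genes were higher and 5 lower on testosterone (747 and 929 over all genes). Post testosterone 3 were higher and 5 lower (1393 and 881 over all genes). The effects differed for 2 genes (508 higher and 59 lower over all genes), and 0 differed between controls. Adamts1 was then called lower in both comparisons (-0.84 and -0.71, edgeR adjusted p = 0.0229 and 0.0424) and Adamts18 lower post testosterone (-1.28, edgeR adjusted p = 0.0425), and the calls of Mmp15 (-0.83, edgeR adjusted p = 0.0514) and Timp4 (-1.78, edgeR adjusted p = 0.0671) post testosterone were lost. Mmp3, Mmp7 and Mmp10 did not pass the filter on low counts, and with no filter Mmp10 was called lower on testosterone (edgeR adjusted p = 0.000724).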
